A study of Mus musculus with 24 samples.

Results

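The comparison described here set 8 libraries of ribosome-bound RNA from Fgf20-/- mouse embryos (mut) against 8 such libraries from Fgf20+/- embryos (het). These 16 of the 24 libraries of the series were chosen by their labels alone, as those collected by TRAP, translating ribosome affinity purification; the 8 pre-TRAP libraries, 4 of each genotype, entered only where they are named. All embryos were of the strain C57BL/6J x 129X1/SvJ, and the ventral otocyst, the part of the inner ear rudiment that holds the cochlea, was taken at embryonic day 14.5. In TRAP, antibodies to GFP pull down ribosomes that carry the tagged protein L10a-eGFP, here made in cells of the Fgf20-Cre lineage. The RNA on those ribosomes was sequenced. Each library pooled 3 to 7 embryos of the same genotype, and each genotype had 4 libraries in experiment 1 and 4 in experiment 2. Both genotypes carried at least 1 mutated Fgf20 allele, so a difference between them compares no functional copy with a single copy, and no wild type embryos entered. The sources used here do not give which part of Fgf20 the mutation changes or how Cre was introduced. P-values measure the spread between pooled libraries, and nothing in the labels says that pools shared no litter.

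Fibroblast growth factors bind receptor tyrosine kinases at the cell surface and, through adaptor proteins, RAS and the kinase ERK, switch on target genes. Among these targets are ETS transcription factors and proteins that damp the pathway in turn, such as Sprouty proteins and ERK phosphatases. FGF20 is made in the prosensory domain of the cochlear duct, the strip of progenitors of the hair cells and supporting cells, and mice without it have too few outer hair cells and outer supporting cells. Beside that strip lies the Kolliker organ, whose cells secrete much of the tectorial membrane, the matrix sheet that overlies the hair cells.

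The TRAP libraries held 30745166 to 50266312 counts each, with 26453 to 30983 genes detected. Markers of otic epithelium were present throughout, at a summed level of 435.9 to 573.9 CPM (counts scaled to a common library size and for composition) in het and 380.6 to 553 CPM in mut. Of the 13 measured markers, 10 were higher in het TRAP than in het pre-TRAP libraries by the test described below, and 2 were lower. Markers of hair cells (16 of 18) and of neurons (14 of 15) were likewise mostly higher in TRAP. Those of periotic mesenchyme were lower (11 of 14, with 0 higher), as were those of endothelium (10 of 10) and erythroid cells (9 of 9). Over all 23201 genes in that test, 17.4% were higher in TRAP and 22.5% were lower. Mesenchyme RNA still varied between TRAP libraries, at 297 to 997 CPM in het and 374 to 1305 CPM in mut, and was highest in libraries 3, 4, 5 and 6, of which 2 were het and 2 were mut. Libraries 1 and 12, both het, stood apart in Y-linked genes, whose summed level ran from 0.519 to 64.9 CPM in het and from 18.6 to 45.0 CPM in mut. RNA amounts in such bulk libraries cannot separate fewer cells of a kind from less RNA per cell.

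Of 21577 genes tested, 16 differed (0.0742%), 4 higher in mut (0.0185%) and 12 lower (0.0556%), at an adjusted p under 0.05 by edgeR's quasi-likelihood test, with experiment as a covariate and Benjamini-Hochberg adjustment over all genes. At an unadjusted p under 0.05 there were 385 higher (1.78%) and 428 lower (1.98%). Log2 fold changes (mut over het) had a median of -0.015 over all genes, and 53.7% of genes had a negative value. Large differences were rare. Among the 14635 genes with a mean of at least 2 CPM, 15 differed by more than 1 on the log2 scale. The highest and lowest mean levels of the genes called were 177.6 CPM, for Tectb, and 2.43 CPM, for Pnoc, and 7 of the 16 had no overlap between the 8 mut and the 8 het libraries, all of them lower in mut. Over all genes tested, 14 showed no overlap (0.0649%), 13 of them lower (0.0602%) and 1 higher (0.00463%). The same libraries gave both the calls and the overlaps, so neither supports the other.

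The 16 calls differed in how far they rested on single libraries. In fits that left out each of the 16 libraries in turn, Tectb, Urah, Hey2, Tril, Smpx and Epyc passed every time, with a highest edgeR adjusted p of 0.04997 for Epyc, without library 11. Calb1 passed 11 of the 16 fits, Dusp6 5, Cpxm2 and Tac1 4 each, Shc4 and Pnoc 3 each, Gna14, Pcp4l1 and BC064078 2 each and Fgf13 1. The log2 fold changes kept their sign in all these fits, and the highest edgeR adjusted p was 0.125. The number of genes called lower fell from 12 to 4 without library 2, 3, 7, 8, 11, 12 or 13, to 5 without library 10, 14 or 16 and to 7 without library 4 or 15. The number called higher fell from 4 to 2 without library 2, 8, 11 or 12.

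**Figure D1:**
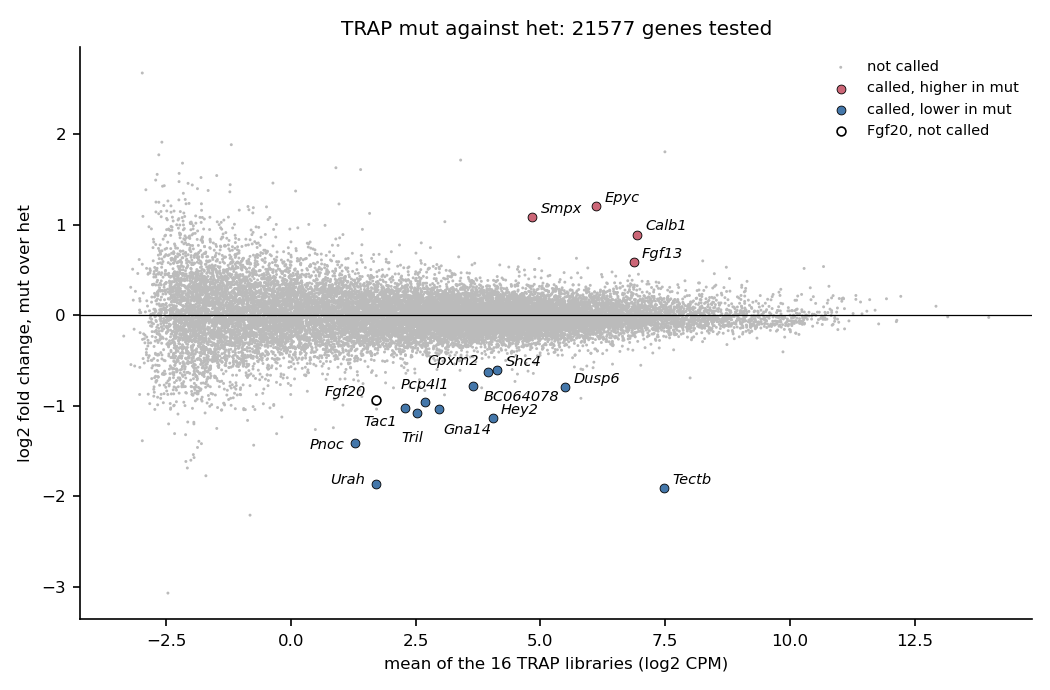
Each point is 1 of the 21577 genes tested, placed by its mean over the 16 TRAP libraries (log2 CPM) and its log2 fold change of mut over het. The 4 genes called higher lie at mid to high levels, Tectb and Urah lie lowest among the 12 called lower, and Fgf20 (open point, -0.94) was not called.

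The start of a gene is where transcription factors of the FGF and Notch pathways may act, so the 250 bases before the annotated starts were read from the RefSeq promoter table (build GRCm38.p6), which matched 13 of the 16 genes called, with 18 windows. Printed here, 5′ to 3′ on the gene's strand, are those of the gene with the largest fall (Tectb), of the ERK phosphatase (Dusp6) and of the only 2 called genes with a match to a motif searched (Hey2 and Gna14), with that match in capitals. They lie at chr19:55180476-55180725 (plus strand), chr10:99262981-99263230 (plus strand), chr10:30842784-30843033 (minus strand) and chr19:16435417-16435666 (plus strand).
Tectb: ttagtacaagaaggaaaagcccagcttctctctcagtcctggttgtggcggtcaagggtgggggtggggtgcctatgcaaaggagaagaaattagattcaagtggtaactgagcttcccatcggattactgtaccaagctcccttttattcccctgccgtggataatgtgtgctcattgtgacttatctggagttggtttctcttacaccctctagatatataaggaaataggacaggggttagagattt
Dusp6: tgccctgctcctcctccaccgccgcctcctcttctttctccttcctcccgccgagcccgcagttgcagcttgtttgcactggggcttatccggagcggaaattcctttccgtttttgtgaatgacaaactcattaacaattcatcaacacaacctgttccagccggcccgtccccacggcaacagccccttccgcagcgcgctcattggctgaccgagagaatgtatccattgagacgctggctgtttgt
Hey2: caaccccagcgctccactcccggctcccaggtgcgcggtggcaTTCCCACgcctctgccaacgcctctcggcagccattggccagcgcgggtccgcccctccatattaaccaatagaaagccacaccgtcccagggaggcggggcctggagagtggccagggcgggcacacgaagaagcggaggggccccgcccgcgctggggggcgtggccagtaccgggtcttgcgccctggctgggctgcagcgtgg
Gna14: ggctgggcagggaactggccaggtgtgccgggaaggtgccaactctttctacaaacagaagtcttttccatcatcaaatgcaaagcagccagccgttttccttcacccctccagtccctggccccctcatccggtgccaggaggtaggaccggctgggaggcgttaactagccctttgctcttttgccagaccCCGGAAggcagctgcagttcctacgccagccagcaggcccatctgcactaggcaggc
The capitals in Gna14 mark the ETS motif searched, CCGGAA or TTCCGG on the other strand, which 12.0% of the 32851 windows of all genes held. Of the windows of called genes, 1 of 18 held it (5.56%), as did 2 of 17 windows of ETS factor genes and 0 of 9 of feedback inhibitor genes. In Hey2 the capitals mark the site of RBPJ, the DNA-binding partner of Notch, GTGGGAA or TTCCCAC, held by 5.42% of all windows and 1 of 18 windows of called genes (5.56%). The search covered both strands and no shorter form of either motif. The motifs do not overlap each other, and a match is a description of these letters only.

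Fgf20 itself was present at low levels. Its RNA lay at 3.18 CPM in the lowest het library, 4.00 at the median and 6.13 in the highest, and at 0.836, 2.42 and 2.96 CPM in mut, from 119 to 211 counts per het library and 30 to 141 per mut library. The groups did not overlap, and counts summed per gene do not show which part of the gene was read. Its log2 fold change of -0.94 ± 0.22 (SE, 8 against 8 libraries) had an adjusted p of 0.188 by edgeR and 0.011 by DESeq2.

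Among 13 measured genes of secreted FGF ligands, Fgf20 included, edgeR called none in either direction, 2 had an unadjusted p under 0.05 with a higher and 2 with a lower value in mut, and the median log2 fold change was 0.06. Fgf10, a ligand made in the Kolliker organ, ran from 68.0 to 178 CPM in het and from 94.5 to 168 CPM in mut, with a log2 fold change of -0.04 ± 0.13 (SE). Fgf9, a ligand of the outer, non-sensory epithelium and the closest relative of Fgf20 in sequence, gave 0.06 ± 0.10 (SE). Fgf5 had 0.43 ± 0.15 (SE, edgeR adjusted p = 0.912) and Fgf17 -0.86 ± 0.32 (SE, edgeR adjusted p = 1.0). The 5 receptor genes measured were not called either. Fgfr1, the receptor through which FGF20 acts in the prosensory domain, had medians of 24.3 CPM in het and 21.9 CPM in mut and a log2 fold change of -0.17 ± 0.13 (SE). Fgfrl1, a receptor that lacks the kinase domain, had -0.41 ± 0.14 (SE, edgeR adjusted p = 0.933).

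Between receptor and ERK, 1 of 21 measured signal transducers fell, the adaptor Shc4, and the median of the 21 was -0.02. Shc4, which links activated receptor tyrosine kinases to RAS, lay at 18.9, 21.0 and 23.4 CPM in het (lowest, median and highest library) and at 10.0, 14.1 and 15.6 CPM in mut. Its groups did not overlap, and its log2 fold change was -0.60 ± 0.11 (SE, edgeR adjusted p = 0.0327). The other members of its family were not called: Shc1 had -0.04 ± 0.13, Shc2 0.12 ± 0.17 and Shc3 -0.53 ± 0.27 (SE). The gene of the ERK kinase MEK1, Map2k1, had -0.22 ± 0.09 (SE, edgeR adjusted p = 1.0), and 7 of its 8 mut libraries lay below the lowest het library.

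The genes that damp ERK signalling had the lowest median of the 40 lists described, -0.28 over 12 measured members. Of these, 10 were negative, as were 53.7% of all genes. The list was chosen with earlier results of these data known, so its rank and counts are a description. Dusp6, a phosphatase that removes the activating phosphates of ERK, fell. It lay at 36.9, 57.9 and 79.2 CPM in het and at 28.2, 32.2 and 41.5 CPM in mut, with a log2 fold change of -0.79 ± 0.14 (SE, edgeR adjusted p = 0.0327). The groups overlapped, since 1 mut library lay above the lowest het library. Of the other 11, 4 had an unadjusted p under 0.05 with a lower value in mut, as did 1.98% of all genes. They were Spry4 and Spry1, Sprouty inhibitors of RAS activation, and Spred3 and Spred2, their relatives. Spry4 had -0.46 ± 0.14, Spry1 -0.46 ± 0.15, Spred3 -0.53 ± 0.22 and Spred2 -0.47 ± 0.20 (SE), with edgeR adjusted p between 0.679 and 1.0. Spry2 and the phosphatase Dusp5 had 0.01 ± 0.27 and 0.01 ± 0.21 (SE). The list's median was -0.45 in experiment 1 and -0.17 in experiment 2. In experiment 2 alone it was not the lowest. Otic capsule cartilage (-0.364), S and mitotic phase genes (-0.305) and periotic mesenchyme (-0.252) had lower medians there.

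Of 13 measured genes of ETS transcription factors, edgeR called 0 and DESeq2 called 3, all lower in mut, beside 0.181% of all genes. This list, too, was chosen with earlier results known. The PEA3 subfamily, Etv1, Etv4 and Etv5, which FGF signalling is known to induce, missed the edgeR threshold and passed that of DESeq2. Etv1 lay at 24.6, 26.9 and 36.9 CPM in het and 10.4, 16.6 and 22.5 CPM in mut, without overlap. Its log2 fold change was -0.73 ± 0.14 (SE, edgeR adjusted p = 0.0508, DESeq2 adjusted p = 0.00125). In pre-TRAP libraries Etv1 had -0.15 ± 0.16 (SE). It was lower in het TRAP than in het pre-TRAP libraries (-0.91, edgeR adjusted p = 0.000117). Etv5 lay at 51.2, 70.3 and 92.1 CPM in het and 39.7, 48.4 and 59.7 CPM in mut, with -0.56 ± 0.12 (SE, edgeR adjusted p = 0.0886, DESeq2 adjusted p = 0.00352). Etv4 had -0.62 ± 0.14 (SE, edgeR adjusted p = 0.148, DESeq2 adjusted p = 0.0175). In Etv5, 5 of 8 mut libraries lay below the lowest het library, and in Etv4, 4 of 8 did. The other 10 ETS genes measured ran from -0.21 for Etv6 to 0.37 for Ets1, all with an unadjusted p above 0.05. Over the 13 the median was -0.15, and it was -0.15 and -0.13 in experiments 1 and 2. Among 13 immediate early genes, which respond to ERK within minutes, none was called by either tool, and the median was -0.07. Of these, 2 had an unadjusted p under 0.05 with a lower value in mut, as did 1.98% of all genes. The list's median was 0.07 in experiment 1 and -0.11 in experiment 2.

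**Figure D2:**
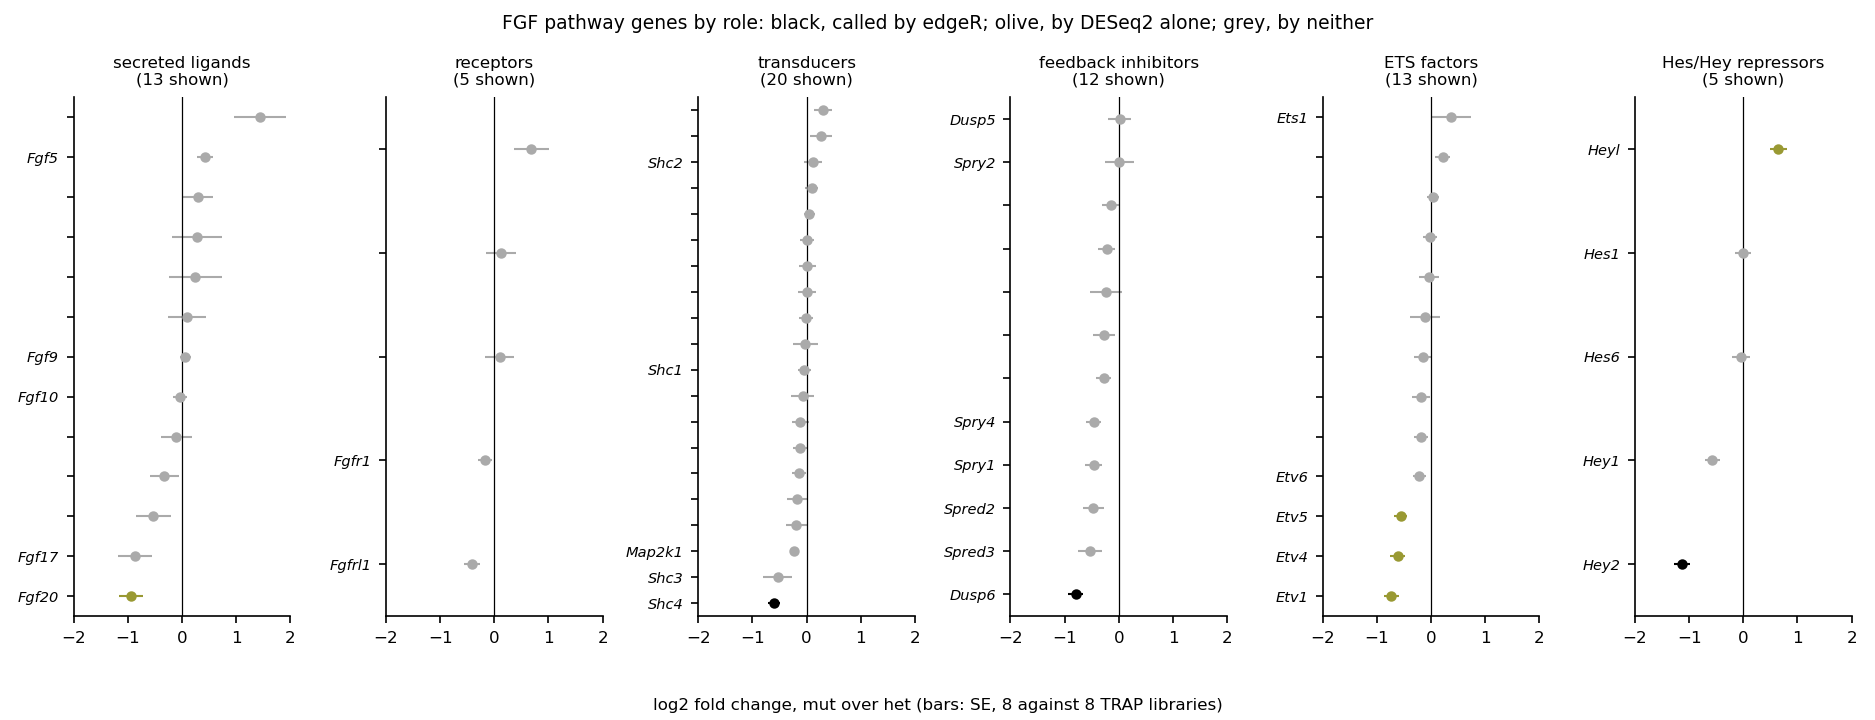
Log2 fold changes of mut over het (points, with SE as bars, 8 against 8 TRAP libraries) for measured genes of 6 roles, with the number shown above each panel, 1 transducer left out, and names given for the genes described in the text. Dusp6, Shc4 and Hey2 were called by edgeR (black), and Fgf20, Etv1, Etv4, Etv5 and Heyl by DESeq2 alone (olive), and no receptor was called by either tool.

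Hey2, a repressor that Notch or FGF signalling can induce in supporting cell progenitors, fell by 1.13 ± 0.14 on the log2 scale (SE, edgeR adjusted p = 0.000818). It lay at 15.1, 22.0 and 30 CPM in het and at 8.09, 10.6 and 11.9 CPM in mut, and the groups did not overlap. Its relatives had values of both signs. Hey1 lay at 32.1, 66.3 and 70.7 CPM in het and at 28.3, 43.4 and 51.0 CPM in mut, with a log2 fold change of -0.57 ± 0.14 (SE, edgeR adjusted p = 0.24, DESeq2 adjusted p = 0.0621). Heyl lay at 5.90, 7.38 and 10.7 CPM in het and at 8.21, 13.0 and 15.6 CPM in mut, with 0.64 ± 0.16 (SE, edgeR adjusted p = 0.231, DESeq2 adjusted p = 0.0156). Hes1, another target of Notch in many tissues, had -0.0048 ± 0.14 (SE), and Hes6, listed with these repressors, had -0.05 ± 0.17 (SE). Of 16 receptors, ligands and modifiers of the Notch pathway, none had an unadjusted p under 0.05. Among them, the prosensory ligand Jag1 had -0.03 ± 0.17 and Notch1 -0.12 ± 0.16 (SE). Differences between these family members were not tested. Sox2, the transcription factor required for the prosensory domain, had medians of 51.0 CPM in het and 40.8 CPM in mut and a log2 fold change of -0.47 ± 0.16 (SE, edgeR adjusted p = 0.933).

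Tectb, the gene of beta-tectorin, a structural protein of the tectorial membrane, showed the largest difference of the genes called. It lay at 229.8, 279 and 316 CPM in het and at 44.9, 75.8 and 107 CPM in mut, so that the highest mut library held less than the lowest het library. Its log2 fold change was -1.91 ± 0.15 (SE, edgeR adjusted p = 1.24e-06). No other of the 9 matrix genes measured for these membranes, tectorial or otolithic, was called. Tecta, which encodes its partner alpha-tectorin, lay at 118, 156 and 195 CPM in het and at 88.0, 121 and 142 CPM in mut, with -0.36 ± 0.12 (SE, edgeR adjusted p = 0.91). Otog, for the scaffold protein otogelin, had -0.27 ± 0.15, and Oc90, an otoconial protein of non-sensory epithelium, 0.34 ± 0.21 (SE). The list's median was -0.18, with 7 of 9 negative.

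Medial genes of the Kolliker organ went in both directions, 2 called higher and 1 lower among 13 measured, with a median of 0.02. This list was drawn up with Epyc, Calb1 and Cpxm2 known to differ, so its counts are a description. Epyc, a small leucine-rich proteoglycan of cartilage and of this epithelium, rose. It lay at 24.7, 36.1 and 84.6 CPM in het and at 60.8, 88.3 and 187 CPM in mut, with a log2 fold change of 1.21 ± 0.19 (SE, edgeR adjusted p = 0.0126). The highest library of each genotype, 5 in het and 6 in mut, was among the 4 with the most mesenchyme RNA, and without those 4 the value was 1.31 (edgeR adjusted p = 3.85e-05). With each library's Y-linked level in the fit, Epyc had 1.11 ± 0.22 (SE) and was no longer called (edgeR adjusted p = 0.0785). Calb1, the calcium buffer calbindin, lay at 66.4, 84.8 and 102 CPM in het and at 95.4, 188 and 199 CPM in mut, with 0.89 ± 0.15 (SE, edgeR adjusted p = 0.0182). In experiment 2 its mut libraries lay close together, at 185 to 199 CPM, whereas those of experiment 1 spread from 95.4 to 197.8 CPM. Cpxm2, a secreted relative of carboxypeptidases, fell from a range of 15.9 to 23.2 CPM in het to one of 9.43 to 14.2 CPM in mut, without overlap, with -0.62 ± 0.11 (SE, edgeR adjusted p = 0.0345).

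Epyc was the only called gene among 10 small leucine-rich proteoglycans measured, of which 9 had positive values with a median of 0.26. Lum and Dcn, for the collagen-binding proteoglycans lumican and decorin, had 0.69 ± 0.19 and 0.48 ± 0.13 (SE, edgeR adjusted p = 0.482 and 0.483). The list's median was 0.58 in experiment 1 and -0.12 in experiment 2. The largest value among the other members was 0.33 ± 0.49 (SE), for Omd. Mesenchyme also expresses most of these genes, and the part of mesenchyme RNA in Lum and Dcn was not tested. Calb1, for its part, was the only called gene among 12 measured cytosolic calcium buffers, and Calb2 and Pvalb had 0.33 ± 0.29 and -0.08 ± 0.18 (SE).

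Smpx and Fgf13, both on the X chromosome, were the other 2 genes called higher. Smpx encodes a small protein of hair cells and muscle whose mutations cause hearing loss. It lay at 12.3, 16.7 and 30.1 CPM in het and at 26.5, 39.3 and 57.1 CPM in mut, with a log2 fold change of 1.08 ± 0.15 (SE, edgeR adjusted p = 0.00322), and 6 of 8 mut libraries lay above the highest het library. Fgf13 encodes an FGF homologous factor, a protein that stays inside the cell and binds sodium channels and microtubules rather than FGF receptors. It lay at 69.9, 94.6 and 121 CPM in het and at 109.6, 147 and 162 CPM in mut, with 0.59 ± 0.11 (SE, edgeR adjusted p = 0.0352). Its 3 relatives Fgf11, Fgf12 and Fgf14 were between -0.06 and 0.04. With each library's Y-linked level in the fit, Smpx had 1.11 (edgeR adjusted p = 0.018) and Fgf13 0.63 (edgeR adjusted p = 0.0747). Xist, the RNA of the inactive X chromosome, had 0.34 ± 0.39 (SE, edgeR adjusted p = 1.0).

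The remaining genes called encode an enzyme, receptor accessory and signalling proteins, neuropeptides and proteins of little known function, and all fell. Urah, an enzyme of urate breakdown, lay at 2.99, 4.89 and 7.69 CPM in het and at 0.844, 1.39 and 1.81 CPM in mut, with a log2 fold change of -1.87 ± 0.18 (SE, edgeR adjusted p = 1.155e-05). Tril, which assists Toll-like receptors, lay at 6.25, 7.33 and 10.0 CPM in het and at 3.01, 3.64 and 4.54 CPM in mut, with -1.08 ± 0.14 (SE, edgeR adjusted p = 0.00147). Neither gene's groups overlapped, at 103 or more counts per het library for Urah and 213 or more for Tril. The neuropeptide precursors Pnoc and Tac1, which give nociceptin and substance P, were the only 2 called of 11 such genes measured. Pnoc lay at 2.20 to 6.63 CPM in het and 0.607 to 2.13 CPM in mut, without overlap, with -1.41 ± 0.26 (SE, edgeR adjusted p = 0.0475). Tac1 lay at 4.42 to 9.57 CPM in het and 2.16 to 5.21 CPM in mut, with -1.02 ± 0.18 (SE, edgeR adjusted p = 0.0352).

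Gna14, the alpha subunit of a G protein that activates phospholipase C, fell from 7.00 to 13.3 CPM in het to 2.63 to 9.77 CPM in mut, with a log2 fold change of -1.04 ± 0.20 (SE, edgeR adjusted p = 0.0475). Of its relatives, Gnaq had 0.16 ± 0.12 and Gna11 0.02 ± 0.13 (SE), and neither was called. Pcp4l1, a small relative of a calmodulin-binding protein, had -0.96 ± 0.18, and BC064078, a gene model of unknown function, had -0.79 ± 0.15 (SE, edgeR adjusted p = 0.0475 for both). In each of these 3 genes the groups overlapped, with 7 of 8 mut libraries below the lowest het library for Gna14 and BC064078 and 6 of 8 for Pcp4l1.

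**Figure D3:**
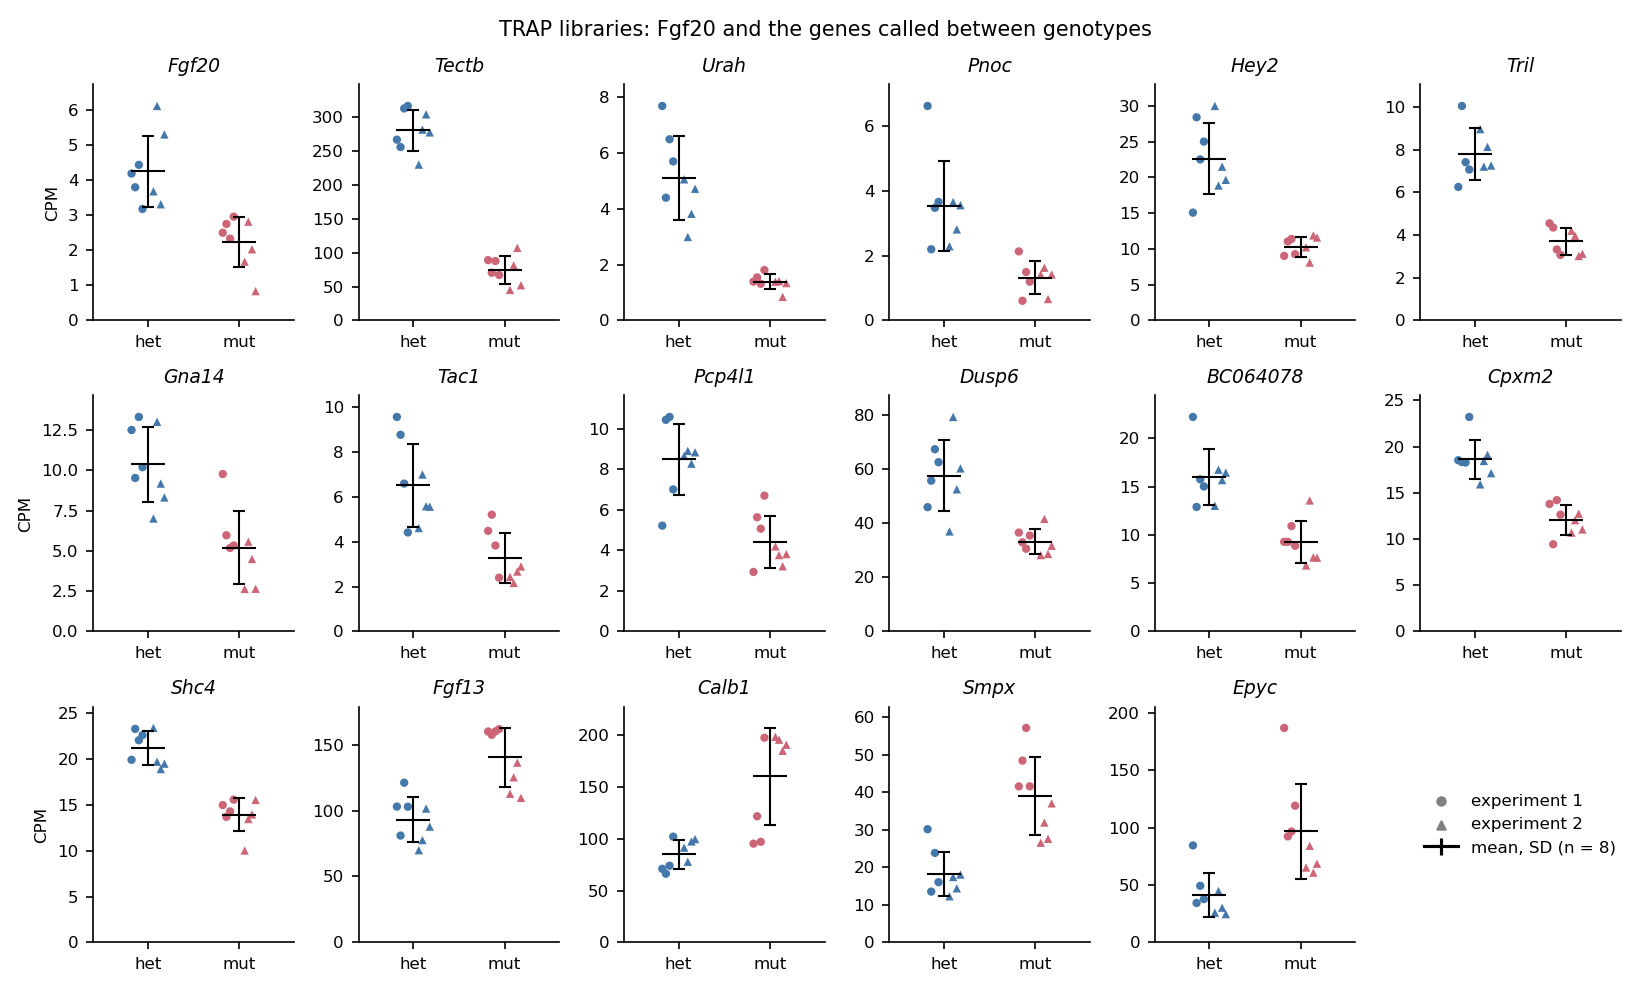
CPM of Fgf20 and the 16 called genes in each TRAP library, by genotype (blue, het; red, mut) and experiment (circles, 1; triangles, 2), with the mean and SD of 8 libraries in black and each axis starting at 0. Tectb, Urah, Pnoc, Hey2, Tril, Cpxm2, Shc4 and Fgf20 show no overlap between genotypes, and Calb1 in mut spreads from 95.4 to 199 CPM.

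Experiments 1 and 2 share no library, so each gives its own estimate, although the genes were chosen on both together. All 16 genes had the same sign and an unadjusted p under 0.05 in each. Of all genes, 4.67% were at that p in experiment 1 and 2.04% in experiment 2. Choosing genes on both together favours such a result. The count is therefore a description, and nothing is read from it against those shares. Fgf20 had -0.53 ± 0.23 in experiment 1 and -1.32 ± 0.35 in experiment 2 (SE, 4 against 4 libraries), a difference with an unadjusted p of 0.0842. Fitted alone, experiment 1 called Tectb and Urah (0.0103% of 19420 genes) and experiment 2 called Tectb and Calb1 (0.0097% of 20618), and each of these had the same sign and an unadjusted p under 0.05 in the other. Over all 19035 genes tested in both, 46.9% had the same sign. Of the 891 with an unadjusted p under 0.05 in experiment 1, 55.8% had the same sign in experiment 2 and 70 (7.86%) also had an unadjusted p under 0.05. Of the 400 chosen that way in experiment 2, the same sign was seen for 69.2% in experiment 1. A test of whether the difference between genotypes itself changed with the experiment called 0 genes by edgeR and 0 by DESeq2, with 455 at an unadjusted p under 0.05 (2.11%), none of them among the 16. In simulated counts that test recovered 68.3% of 4-fold and 10% of 2-fold differences.

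**Figure D4:**
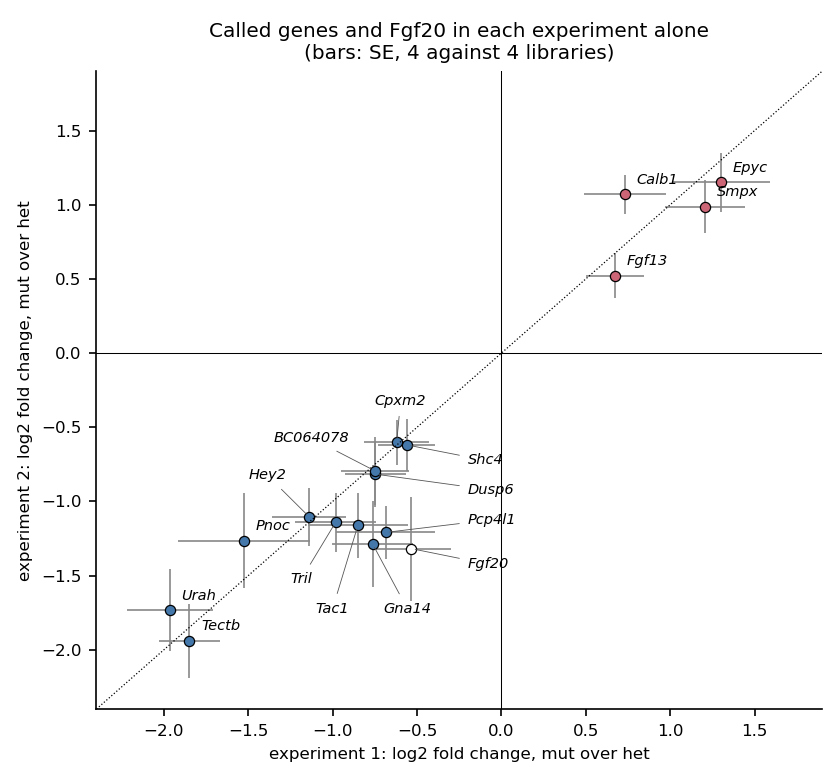
Log2 fold changes of mut over het fitted in experiment 1 (x axis) and experiment 2 (y axis), with SE of 4 against 4 libraries, for the genes called higher (red), those called lower (blue) and Fgf20 (open). All points lie in the 2 quadrants of equal sign, Tectb at -1.85 and -1.94 and Calb1 at 0.73 and 1.07.

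Pre-TRAP libraries, 4 of each genotype, were a second set for the same genes, although the labels do not say whether they came from the same embryos. Over 21954 genes, edgeR called only Tectb there, as lower (0.00455%), with 1048 genes at an unadjusted p under 0.05 (4.77%), and DESeq2 called 2 genes (0.00911%). Tectb ran from 26.0 to 50.5 CPM in pre-TRAP het and from 7.80 to 12.0 CPM in pre-TRAP mut, with a log2 fold change of -1.90 ± 0.15 (SE, edgeR adjusted p = 0.00032), close to its value in TRAP. Of the 16 genes, 14 had the same sign in pre-TRAP, 7 of them with an unadjusted p under 0.05: Tectb, Urah, Hey2, Smpx, Calb1, Tac1 and Pnoc. Calb1 had 0.98 ± 0.19, Smpx 0.86 ± 0.24, Pnoc -1.33 ± 0.44 and Tac1 -0.83 ± 0.24 (SE, edgeR adjusted p = 0.837 for each). For others the pre-TRAP value was near 0: Dusp6 had -0.07 ± 0.15, Cpxm2 -0.06 ± 0.17, Gna14 0.0018 ± 0.18, Pcp4l1 0.02 ± 0.19 and Epyc 0.04 ± 0.17 (SE). Epyc ran from 63.0 to 103 CPM in pre-TRAP het and from 65.1 to 90.6 CPM in pre-TRAP mut.

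Tested directly over all 24 libraries, the difference between the TRAP and the pre-TRAP effect of genotype passed for 0 of 24242 genes by edgeR and 0 by DESeq2, with 302 at an unadjusted p under 0.05 (1.25%). Of the 16 genes, 7 were among those 302: Urah, Tril, Epyc, Dusp6, Cpxm2, Pcp4l1 and Gna14 (unadjusted p from 0.00113 to 0.0068, edgeR adjusted p = 1.0 for each). The 16 were chosen for their difference in TRAP, which is also a term of this test, so that count is a description and nothing is read from it against the 1.25%. Epyc had a difference of 1.19 ± 0.33 and Dusp6 one of -0.70 ± 0.22 (SE) on the log2 scale. TRAP het libraries enter this test and also the comparison of TRAP with pre-TRAP in het, so the values of the 2 are set side by side only. In the latter, 10 of the 16 genes were higher in TRAP, as were 17.4% of 23201 genes, by 3.13 for Calb1, 3.06 for Smpx, 2.88 for Tectb and 1.53 for Hey2 on the log2 scale. Epyc was lower in TRAP (-0.98, edgeR adjusted p = 0.00396), as were 22.5% of all genes. Neither applied to Tril, Dusp6, Tac1, Pcp4l1 and Gna14, whose values lay between -0.26 and 0.41.

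DESeq2's Wald test, applied to the same 16 TRAP libraries, called 14 genes higher (0.0649%) and 39 lower (0.181%), all 16 edgeR genes among them. The 37 it added, 10 higher and 27 lower, had edgeR adjusted p up to 0.341. Fam184b, a gene of little known function, was the only gene of all tested with every mut library above every het library. The margin was narrow, at 2.97 to 6.136 CPM in het and 6.143 to 9.16 CPM in mut. Its log2 fold change was 0.80 ± 0.15 (SE, edgeR adjusted p = 0.0508) in TRAP and 0.05 ± 0.18 (SE) in pre-TRAP libraries. Gata2, a transcription factor of non-sensory otic epithelium, had 0.55 ± 0.12 (SE, DESeq2 adjusted p = 0.00586). Nr2e1, a nuclear receptor of neural progenitors, had 1.03 ± 0.25 (SE, DESeq2 adjusted p = 0.0144). In pre-TRAP libraries Gata2 had the opposite sign, -0.37 ± 0.17 (SE, edgeR adjusted p = 0.837), and Nr2e1 had 0.49 ± 0.29 (SE). Gata2 was also lower in het TRAP than in het pre-TRAP libraries (-1.62, edgeR adjusted p = 1.3e-06). Lrrtm3, a synaptic adhesion protein, Rasgrf1, an activator of RAS, Ano1, a chloride channel of the Kolliker organ, and Synpr, a synaptic vesicle protein, ranged from 0.50 to 0.77. On the lower side, Crym, which binds thyroid hormone and is linked to hereditary deafness, lay at 242, 323 and 398 CPM in het and at 145.5, 184 and 256 CPM in mut, with -0.69 ± 0.14 (SE, DESeq2 adjusted p = 0.00149). Car13, a carbonic anhydrase, and Cadps2, a factor of vesicle release, had no overlap between genotypes, at -0.64 ± 0.12 and -0.42 ± 0.10 (SE). Their pre-TRAP values were 0.08 ± 0.17 and 0.03 ± 0.17 (SE). Fat3, an atypical cadherin, Rab19, a vesicle GTPase, and Man1c1, a mannosidase, had -0.97, -0.80 and -0.71.

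Genes of cell division had mostly small negative values. Of 24 measured genes of S phase and mitosis, 22 were negative, as were 53.7% of all genes. Their median was -0.17 beside -0.015 over all genes. At an unadjusted p under 0.05, 7 were lower in mut, as were 1.98% of all genes, and 0 were higher. In het, 16 of the 24 were lower in TRAP than in pre-TRAP libraries and 0 were higher. The list's median log2 fold change between genotypes was -0.06 in experiment 1 and -0.30 in experiment 2. None was called by edgeR, and DESeq2 called Cdc20, an activator of the complex that ends mitosis. Cdc20 lay at 30.3, 36.5 and 40.5 CPM in het and at 22.9, 26.4 and 33.5 CPM in mut, with -0.42 ± 0.09 (SE, DESeq2 adjusted p = 0.000237). Ccnd1, for cyclin D1, which FGF signalling induces in many cells, lay at 98.0, 159.8 and 217.5 CPM in het and at 72.2, 103 and 145.5 CPM in mut, with -0.55 ± 0.11 (SE, DESeq2 adjusted p = 0.00586, edgeR adjusted p = 0.0802). The inhibitor Cdkn1b, which marks progenitors that have left the cell cycle, had -0.44 ± 0.15 (SE, edgeR adjusted p = 0.91), and the 10 measured D cyclins and CDK inhibitors had a median of -0.01.

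Of the other signalling lists, none held a gene called by edgeR. The median was -0.07 over 27 Wnt genes, 0.07 over 19 BMP and activin genes, -0.04 over 13 Hedgehog genes, -0.02 over 19 genes of retinoic acid and -0.06 over 25 genes of heparan sulfate, the sugar that FGFs need to bind their receptors. Cyp26b1, which degrades retinoic acid, was the exception that DESeq2 called. It lay at 13.2, 14.3 and 20.1 CPM in het and at 9.05, 11.0 and 12.1 CPM in mut, without overlap, with -0.51 ± 0.12 (SE, edgeR adjusted p = 0.133, DESeq2 adjusted p = 0.00638). Genes of planar cell polarity (13 measured) and of developmental timing (10 measured) had medians of -0.10 and -0.14.

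Hair cell markers, 18 measured, held no called gene, and 15 were positive, with a median of 0.23 (0.12 in experiment 1 and 0.39 in experiment 2). Atoh1, whose product sets progenitors on the path to hair cells, lay at 5.02, 5.71 and 8.63 CPM in het and at 3.83, 5.80 and 7.47 CPM in mut, with -0.20 ± 0.16 (SE, edgeR adjusted p = 1.0). Gfi1, a later hair cell factor, had 0.58 ± 0.24 (SE, edgeR adjusted p = 1.0). Of 47 genes of hereditary deafness, Smpx was called and 30 were positive. Among 15 supporting cell markers, Hey2 alone was called, and Rorb, a nuclear receptor, had 0.63 ± 0.18 (SE, edgeR adjusted p = 0.567). Of 17 prosensory markers, a list that includes Fgf20 and was drawn up with results known, Hey2 was called lower and DESeq2 also called Fgf20 and Etv5. At an unadjusted p under 0.05, 6 were lower in mut and 1, Bmp4, was higher, beside 1.98% and 1.78% of all genes. Their median was -0.03, with -0.18 in experiment 1 and 0.08 in experiment 2, and on the log2 scale the het libraries averaged 4.96 ± 0.16 for these markers and the mut libraries 4.78 ± 0.18 (SD, n = 8 each). Markers of the roof and non-sensory epithelium, Bmp4 among them here too, had the highest median of the epithelial lists, 0.40 over 11 measured members. Of these, 10 were positive, beside 9986 of all 21577 genes. At an unadjusted p under 0.05, 4 were higher in mut, as were 1.78% of all genes. Besides Gata2 the 4 were Hmx2 with 0.72 ± 0.22, Lmx1a with 0.56 ± 0.18 and Bmp4 with 0.40 ± 0.16 (SE, edgeR adjusted p from 0.64 to 1.0). The list's median was 0.46 in experiment 1 and 0.31 in experiment 2. In het, 8 of the 11 were lower in TRAP than in pre-TRAP libraries and 1 was higher. Gata2 had the opposite sign in pre-TRAP libraries, and why was not tested.

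Other cell types were measured beside these. The mean level of the 15 neuron markers was 0.16 higher in mut on the log2 scale, by 0.04 in experiment 1 and 0.28 in experiment 2, and their summed level ran from 3908 to 7337 CPM in het and from 5286 to 6818 CPM in mut. That of the 14 mesenchyme markers differed by 0.02, and that of the 4 Y-linked genes by 0.99, with SD of 1.61 in het and 0.395 in mut. Erythroid markers, summed, reached 1231 CPM in het and 1606 CPM in mut, and none of the genes in these 4 lists was called. Every marker measured had passed the count filter, so none of them could be at 0 in every library, and listed markers that failed it were not checked. When each library's neuron level entered the fit, edgeR called 55 genes higher and 165 lower, all 16 among them. When the Y-linked level entered instead, 1 was higher (Smpx) and 6 were lower (Tectb, Urah, Hey2, Tril, Dusp6 and Tac1). The other 9 of the 16, Epyc, Calb1, Fgf13, Shc4, Cpxm2, Pnoc, Pcp4l1, Gna14 and BC064078, then had edgeR adjusted p from 0.0501 to 0.12, with the same signs. With the mesenchyme level edgeR called 5 higher and 17 lower, all 16 among them. Without the 4 libraries of most mesenchyme RNA it called 3 higher and 9 lower, with 11 of the 16 among them. Shc4, Cpxm2, Tac1, Fgf13 and Pnoc then had edgeR adjusted p from 0.0571 to 0.242, with the same signs. The part of sex and of neuron content in single genes was not tested otherwise.

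**Figure D5:**
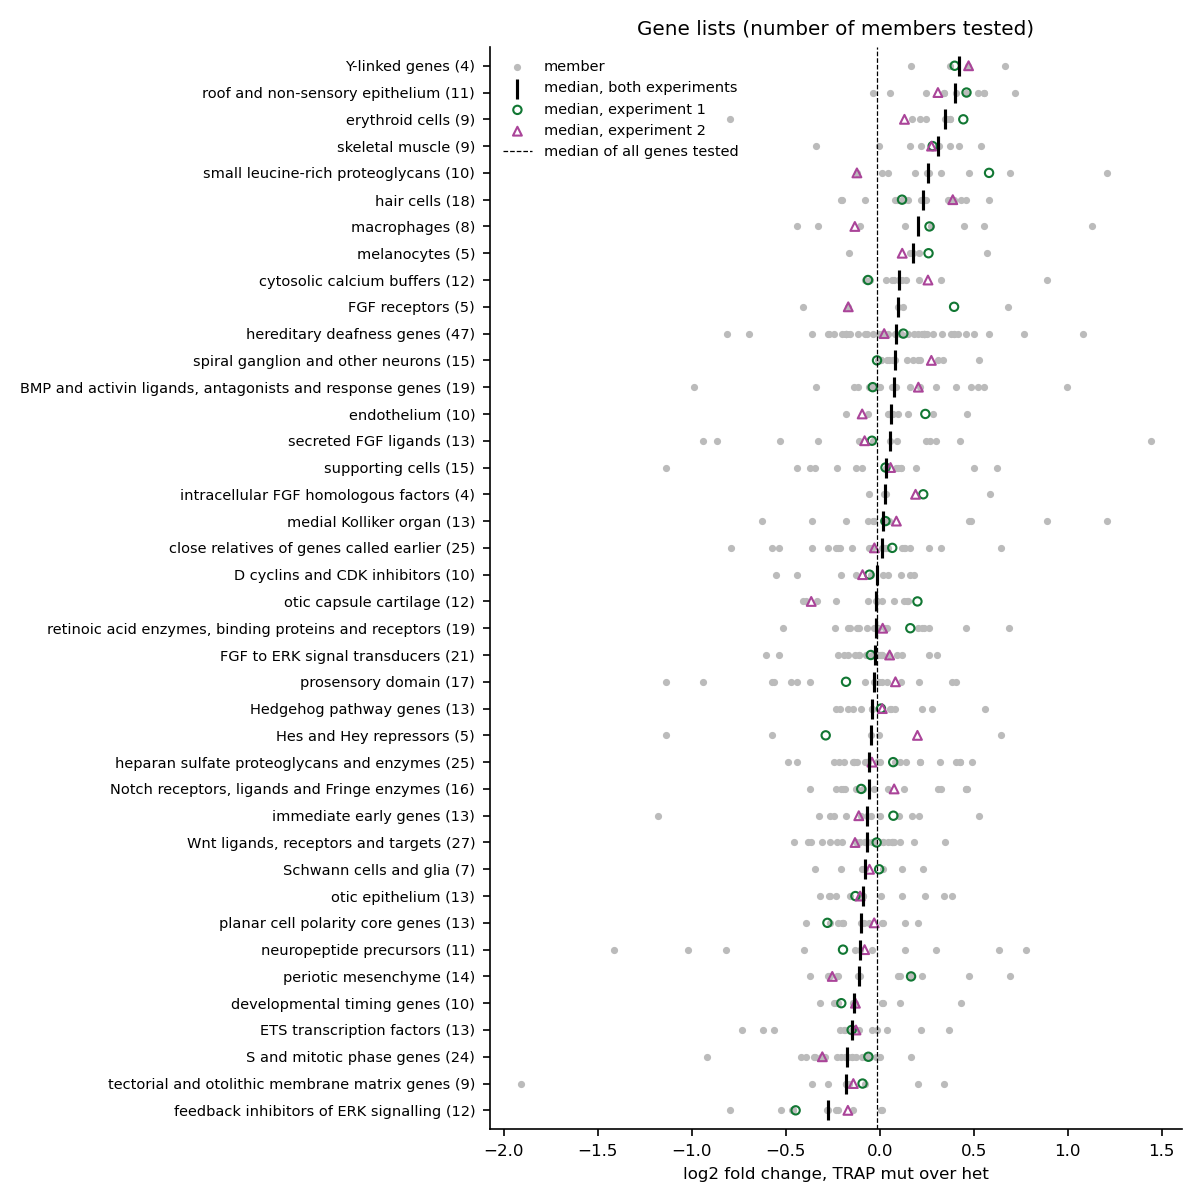
Members (grey) and medians (black bars) of the log2 fold changes of mut over het for each of the 40 gene lists, with the medians of experiment 1 (green circles) and experiment 2 (purple triangles) alone and the median of all genes tested (dashed line, -0.015). The feedback inhibitors of ERK signalling lie at the low end (-0.28), with -0.45 in experiment 1 and -0.17 in experiment 2. The proteoglycans have medians of 0.58 in experiment 1 and -0.12 in experiment 2.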

How the data were processed

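The authors deposited a table of raw counts per gene for all libraries, with 53946 genes, of which 10068 had no count. STAR, DESeq2 and the build GRCm38.p5 are named per the submitters' processing notes, without versions. The sources used here name neither the program that counted reads nor its strand setting and annotation, so reads of antisense or overlapping genes cannot be told apart. Identifiers were matched to symbols for 53274 genes. Counts were filtered with edgeR's filterByExpr (minimum count 10), scaled by TMM and fitted with edgeR 4.0.16 (quasi-likelihood test; limma 3.58.1, R 4.3.3) on the 16 TRAP libraries, with experiment as a covariate and Benjamini-Hochberg adjustment at 0.05. DESeq2 1.42.0 was an alternative. CPM, the usual counts-per-library-size unit, were computed from the deposited counts with TMM scaling (factors 0.812 to 1.104), and levels of marker lists are means of log2(CPM + 0.5). In the labels' protocols, RNA was amplified with a SMARTer kit, so counts are not independent molecules.

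The genes named are the targeted gene, all genes called by edgeR, up to 8 in each direction called by DESeq2 alone (mean of at least 2 CPM, with a symbol), and from each list up to 6 members of smallest unadjusted p and relatives that serve as a reference. The 40 lists held 541 genes, of which 538 were matched. The value of 1 listed gene is not reported here. Members and lists were chosen with earlier results of these data known. In counts simulated for the TRAP comparison (21045 genes fitted), the same fit recovered 98.3% of 60 genes changed 4-fold. It recovered 82.9% of 70 changed 2-fold and 17.1% of 70 changed 1.5-fold, with 11 false calls. The changed genes were drawn from those above a mean count, and no experiment effect was simulated. More genes were changed there than were called in the data, which eases the adjusted threshold, so these shares may overstate recovery in the data. Alternatives changed the scaling, the filter, the tool, the covariates and the libraries.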

Additional observations from a re-analysis of the deposited data

Results flagged for a closer look

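Of 98 sets of 8 libraries checked for a single library far from the other 7, 8 had one, and chance alone gives about 1 in 20. Het library 5 stood apart for Epyc (84.6 CPM), Pnoc (6.63 CPM) and BC064078 (22.2 CPM). Mut library 6 stood apart for Epyc (187 CPM) and Gna14 (9.77 CPM). Both libraries were among the 4 with the most mesenchyme RNA. With the mesenchyme level in the fit, edgeR gave log2 fold changes of 1.21 for Epyc, -1.43 for Pnoc, -0.79 for BC064078 and -1.07 for Gna14, with adjusted p from 0.000129 to 0.0232. Without those 4 libraries, Pnoc had -1.41 and was no longer called (edgeR adjusted p = 0.0571), and the other 3 were. Shc4 was lowest in mut library 2 (10.0 CPM), and Cpxm2 was highest in het library 15 (23.2 CPM). The mean level of the Kolliker organ markers was highest among het libraries in library 15, at 5.16 on the log2 scale.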

How the results depend on the processing

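No paired analysis was possible because every library carries a number of its own, so the groups share no replicate numbers. Beside the 4 genes higher and 12 lower of the main comparison, the counts were 8 and 19 without the count filter, 14 and 39 with DESeq2, 7 and 24 with limma-voom, 0 and 4 without the experiment covariate, 0 and 2 in experiment 1, 1 and 1 in experiment 2, and 8 and 27 in a fit of all 24 libraries. They were 55 and 165 with the neuron level as a covariate and 1 and 6 with the Y-linked level. Leaving out each library in turn gave 2 to 5 higher and 4 to 13 lower. The cause of these changes was not tested, beyond the smaller number of libraries in the single experiments. Without the count filter, 1 gene passed the genotype by experiment test and 1 the genotype by method test, beside 0 in each main fit. All 16 genes were called with DESeq2, with limma-voom and with the other scaling (RLE), 14 without the count filter, 7 with the Y-linked level and 4 without the experiment covariate. No direction reversed in any of these fits. In counts simulated at this depth and number of libraries, differences of 1.5-fold were mostly not recovered.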
